A study of Gasterosteus aculeatus with 53 samples.

Results

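Limnetic and benthic threespine sticklebacks of Paxton Lake, on Texada Island in British Columbia, form a sympatric species pair, and their females were compared here by the RNA of the whole brain. Replicates were separate fish by their labels. A benthic conspecific library has trial 89 in its title, a number also held by a benthic social control library, and trial 88 in its description, which was used here. The comparison took the 34 libraries labelled Paxton limnetic or Paxton benthic, 18 and 16 of the 53 libraries of the series, with 1 library per fish. A further library labelled Paxton benthic (conspecific courtship, trial 83) was left out, because the study treats it as swapped with a Priest limnetic one. The other libraries came from Priest limnetic females of a nearby lake, and 17 of them entered the fit of 51 libraries, where they shared the estimate of the spread, the treatment terms, the scaling and the filter on low counts.

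Fish collected from the lake were brought to a laboratory, where each female carrying ripe eggs met a single stimulus fish before her brain was dissected. Among the limnetic females, 6 had been courted by a conspecific (limnetic) male, 6 by a heterospecific (benthic) male and 6 had been with a non-reproductive conspecific female as the social control. The corresponding benthic groups held 5, 5 and 6 females, for which the conspecific male was benthic and the heterospecific male limnetic. All females came from the same lake, and no genetic manipulation or drug was used. Each species was represented by 1 population, so the difference described is that between these populations.

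Limnetic sticklebacks feed on plankton in open water, and benthic sticklebacks feed on larger invertebrates near the bottom and the shore. Where both live in a lake they differ in body form, diet, courtship and male nuptial traits, and females tend to reject males of the other species. A difference in brain RNA that is present whatever the female has just met is termed constitutive, as opposed to a response to courtship. The question was how large and how general the constitutive difference was, and whether it held in each social setting. The deposited table gives Ensembl gene identifiers without names, and the reference annotation at hand matched 0 of them, so genes are described by level and behaviour, marker genes of brain cell types were not checked, and only 4 identifiers are given.

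Total counts were similar in both populations, from 33331960 to 52788436 (median 39474543, n = 18) in limnetic and from 29537339 to 45778325 (median 38739888, n = 16) in benthic females. Levels are given in CPM, counts per 1000000 counts of a library after scaling for library composition. Benthic libraries held slightly more genes at 1 CPM or above, 17463 ± 94.2 (SD, n = 16) of the 20011 tested genes against 17379 ± 68 (SD, n = 18), a difference of -83.5 genes (limnetic minus benthic; two-sided permutation test, p = 0.00589, adjusted over 2 measures p = 0.0118). The ranges overlapped, 17333 to 17616 in benthic and 17275 to 17507 in limnetic libraries. The 100 most abundant genes took 18% ± 1.06 (SD, n = 16) of the counts in benthic and 17.3% ± 1.15 (SD, n = 18) in limnetic libraries (permutation test, p = 0.0481, adjusted p = 0.0481). The range of trial numbers that both populations shared held 8 benthic and 17 limnetic females. Neither difference had a p under 0.05 there (-34.3 genes, permutation test, p = 0.25, and -0.92 percentage points, p = 0.0894). The second was larger there than over all 34 libraries (-0.778 percentage points), with fewer libraries.

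Brain expression differed between the species in a large share of genes, but mostly by little. Of the 20011 genes tested, 7108 were called (35.5%, edgeR, adjusted p under 0.1), 3424 higher in limnetic females (17.1%) and 3684 lower (18.4%). Called genes differed by a median of 1.23-fold, and for 42.5% of them the fold was 1.2 or less. Genes that were lower in limnetic females differed by a median of 1.3-fold and those that were higher by a median of 1.18-fold. As given below, lower calls were more common among genes of low level, where called folds were larger. The part of level in these medians was not tested. A fold above 2 was estimated for 612 called genes (256 higher, 356 lower), above 4 for 115 and above 8 for 38, of which 25 were higher and 13 lower in limnetic females. In whole-brain RNA, fewer cells of a type and less RNA per cell cannot be told apart, and this applies to every difference given here. All reads were aligned to the same reference genome, and the part of sequence differences between the populations in the counts was not tested.

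**Figure D1:**
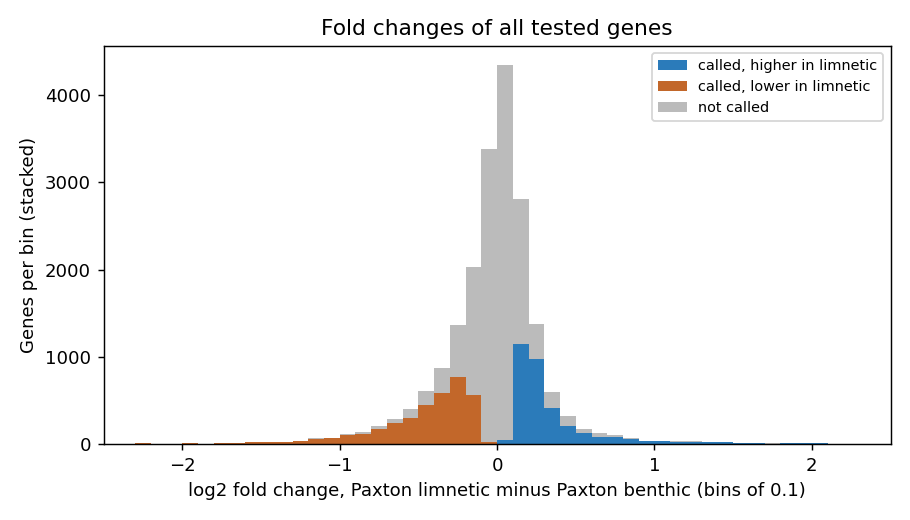
Stacked numbers of genes per bin of 0.1 in the log2 fold change (x axis, Paxton limnetic minus Paxton benthic), with called genes coloured by direction and the others in grey; 59 genes lie beyond the plotted range of 2.5 in either direction. Most of the 7108 called genes sit close to 0; the median fold is 1.18 for those higher and 1.3 for those lower in limnetic females.

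Set against the variation between females, the typical difference was smaller than the spread within a population. Over all tested genes the difference had a median of 0.566 residual SDs of log2 CPM. For called genes the median was 1.19, a value raised by selection, since calling favours genes with a large difference against their spread. It exceeded 1 SD in 5027 genes (25.1%), 2 SDs in 859 (4.29%) and 4 SDs in 49. The difference was the log2 fold change of the edgeR fit, while the SD came from log2 CPM with a small count added to damp low values. For genes with few counts this can lower the SD and so raise the ratio. The residual SD had a median of 0.226 among limnetic and 0.244 among benthic females, and it was larger in benthic females for 54.7% of genes. On average the population accounted for 13.7% of the variance of a gene over the 34 libraries and the treatment for 5.89%, with medians of 7.5% and 4.27%. Shares of 3.03% and 6.06% correspond to variance spread evenly over the degrees of freedom. The population held over 50% of the variance in 883 genes and the treatment in 0.

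Pairs of females of different species differed by a root mean square of 0.689 in log2 CPM (median of 288 pairs), pairs of limnetic females by 0.597 (153 pairs) and pairs of benthic females by 0.563 (120 pairs). These ranges overlapped widely, with 0.549 for the most similar pair of different species and 0.743 for the least similar pair of limnetic females. Called genes took a similar part of the RNA in both populations, from 34.9% to 37.8% of counts in limnetic (median 35.8%) and from 35.5% to 37.8% in benthic libraries (median 36.1%).

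The direction of the difference was related to the level of a gene. Tested genes were divided into 4 level groups of equal size by mean CPM over the 34 libraries. In the highest group (mean of at least 46.8 CPM), 1111 called genes were higher and 663 lower in limnetic females, so that 62.6% of the calls were higher. In the third group the directions were even in this fit, with 930 higher and 923 lower. With the 34 Paxton libraries alone 56.7% of the calls in that group were higher, and in the shared range of trial numbers 44.8% were. In the second group (4.12 to 17.4 CPM) 775 were higher and 1194 lower, and in the lowest group 608 were higher and 904 lower, 39.4% and 40.2% higher. The median log2 fold change of all tested genes followed the same order and was small throughout, -0.06, -0.02, 0.01 and 0.04 from the lowest group to the highest.

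The share of genes called was 30.2%, 39.4%, 37% and 35.5% from the lowest group to the highest, smallest in the lowest group. The called differences were larger there, with a median of 1.66-fold in the lowest group and 1.15-fold in the highest. A gene with few counts needs a larger fold to be called, which can raise the median of the lowest group. With the 34 Paxton libraries alone, 1368 calls in the highest group were higher and 579 lower in limnetic females. In the range of shared trial numbers, 50.5% of the calls in the highest group were higher in limnetic females, with 434 higher and 426 lower. Benthic libraries also had more genes at 1 CPM and a larger share of counts in the most abundant genes, as given above, and the part of these library properties in the pattern was not tested.

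**Figure D2:**
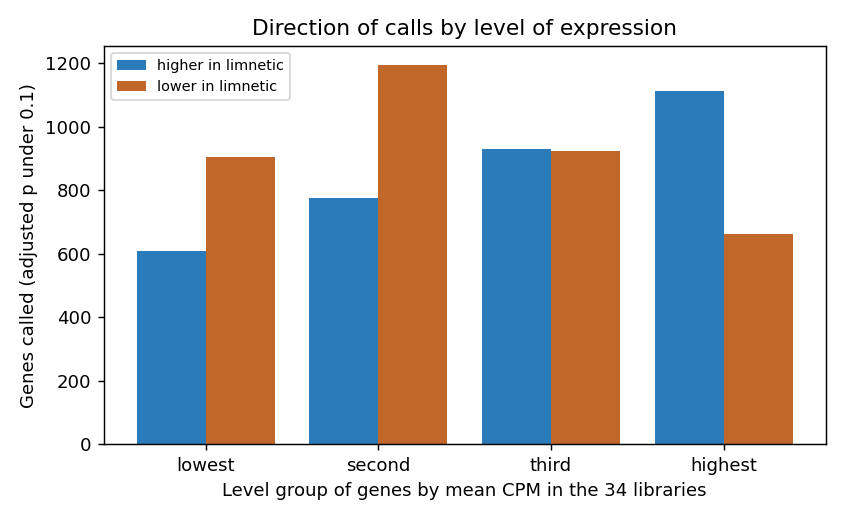
Number of genes called between Paxton limnetic and Paxton benthic females (y axis) in each of 4 level groups of the 20011 tested genes by mean CPM over the 34 libraries (x axis), with bars for genes higher and lower in limnetic females. Lower calls outnumber higher ones by 904 to 608 in the lowest group, and higher calls outnumber lower ones by 1111 to 663 in the highest.

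Far fewer genes differed by more than 2-fold beyond their error. Tested against a fold of 2 (edgeR's glmTreat), 114 genes passed (0.570% of those tested), 53 higher and 61 lower in limnetic females. Of these, 72 belonged to the lowest level group and 4 to the highest. The mean level was under 1 CPM in both populations for 23 of them and reached 10 CPM in at least 1 population for 35. In 29 of the 114 the ranges of the 34 libraries did not overlap, and in the others at least 1 female of one population lay within the range of the other. Over all tested genes 75 (0.375%) had no overlap. The 114 were chosen for a large difference in the same libraries, which favours a lack of overlap.

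The genes named below had no overlap between the populations, a mean of at least 1 CPM in the higher one and the largest estimated folds in each direction. ENSGACG00000019508 ranged from 1.29 to 3.82 CPM (median 1.97, n = 18) in limnetic females. In benthic females 11 of the 16 libraries had a count of 0, and the highest level was 0.577 CPM, 22 counts in the heterospecific library of trial 14, which held most of the 35 counts of that population. The log2 fold change was 5.13 (standard error 0.47, adjusted p = 3.95e-12 from edgeR), and 6.40 without the library of trial 14. The limnetic females of Priest Lake were low as well, with 0.194 ± 0.112 (SD, n = 17) CPM, so the high level was found in Paxton limnetic females alone among the 3 populations.

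ENSGACG00000020023 showed the smallest p-value of all genes tested. Its 18 limnetic libraries ranged from 5.09 to 8.38 CPM (median 6.51), and its 16 benthic libraries from 0.0276 to 0.645 CPM (median 0.362). The lowest limnetic female thus lay well above the highest benthic one, and no benthic library was at 0. Within treatments the log2 fold changes were 4.00 with conspecific males, 4.34 with heterospecific males and 3.99 in the social control (adjusted p = 7.08e-13, 5.28e-14 and 3.1e-14 from edgeR). Priest limnetic females were closer to the Paxton limnetic level here, between 2.53 and 7.39 CPM (median 5.67, n = 17).

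In the other direction, ENSGACG00000019364 ranged from 2.33 to 7.09 CPM (median 3.32, n = 16) in benthic and from 0 to 0.363 CPM (median 0.148, n = 18) in limnetic females. The populations were separated by a wide gap, and 1 limnetic library was at 0. The log2 fold change was -4.65 (standard error 0.4, adjusted p = 6.4e-13 from edgeR). The 16 benthic values were spread over this range, and each treatment held at least 1 value above 6 CPM. In Priest limnetic females the median was 0.11 CPM (n = 17) and the highest library stood at 1.77 CPM, below every Paxton benthic one.

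ENSGACG00000020158 ranged from 4.28 to 10.6 CPM (median 6.89, n = 16) in benthic and from 0.0933 to 0.814 CPM (median 0.417, n = 18) in limnetic females. Every benthic value was thus above every limnetic one. The log2 fold change was -4.11 (standard error 0.31, adjusted p = 1.05e-14 from edgeR), with -4.17 among females with conspecific males, -4.10 with heterospecific males and -4.06 in the social control. Priest limnetic females had a median of 0.514 CPM and ranged from 0 to 3.47 CPM (n = 17). For the last 3 of the 4 named genes, leaving out any 1 Paxton library moved the log2 fold change by less than its standard error.

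**Figure D3:**
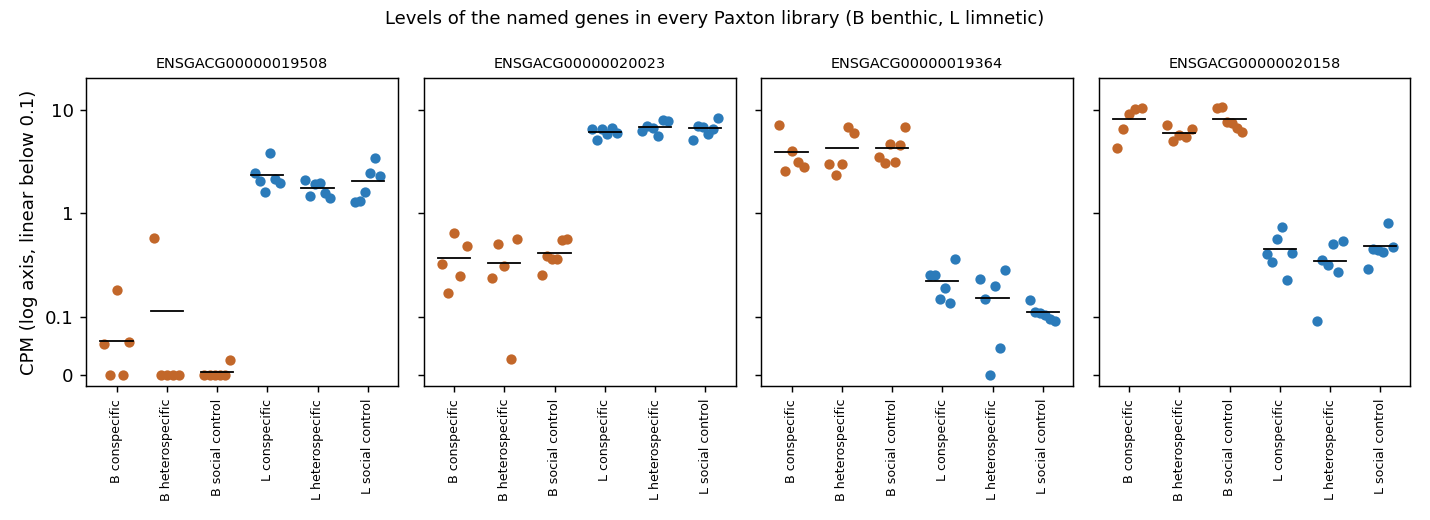
CPM of the 4 named genes (y axis, logarithmic above 0.1 and linear below) in each of the 34 Paxton libraries, by population and treatment (x axis), with a black line at each group mean. In every panel all libraries of one population lie above all of the other, and the single benthic point near 0.577 CPM for ENSGACG00000019508 is the library of trial 14.

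Over all tested genes, 75 (0.375%) separated the 34 libraries completely, 26 with every limnetic female above every benthic one and 49 with every limnetic female below. Their absolute log2 fold change ranged from 0.21 to 5.13 (median 1.12), and for 33 of them the fold was 2 or less. They occurred at every level of expression, 23, 22, 18 and 12 from the lowest group to the highest. The library of trial 14 was the one that bore most on this number, as 101 genes separated the others without it. Of those 101, 49 had every limnetic female above every benthic one, so the uneven split of 26 and 49 depended on this library. With the library of trial 83 included under its label, 20 genes separated the populations.

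A smaller set of genes was close to absent from one population. The median was under 0.1 CPM in one population and at least 1 CPM in the other for 11 genes, 5 of them low in benthic and 6 low in limnetic females. All 11 were among the genes called, against 35.5% of all tested genes. They were picked for a large difference in the same libraries, so their being called is no separate result. The median of the higher population ranged from 1.35 to 12.1 CPM. None of these genes was at 0 in every library of the low population, and 2 had no overlap.

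Single females of the low population departed from its median in most of the 11 genes. In 3 of the 5 genes low in benthic females and 5 of the 6 low in limnetic females, at least 1 female of the low population reached 1 CPM. In 2 of these benthic-low genes it was 1 female of 16, that of trial 14 in one gene and of trial 31 in the other, the benthic females described below as nearest to the limnetic side. In the remaining benthic-low gene 3 females reached 1 CPM, and the highest was that of trial 77, at 3.36 CPM. The most abundant of the 11 genes ranged from 5.85 to 17.9 CPM in benthic females (median 12.1, n = 16). In limnetic females its median was 0.0416 CPM, 6 of the 18 were at a count of 0, and 6 others had 1 CPM or more, up to 7.13 CPM. In 9 of the 11 genes each female of the higher population had at least 0.1 CPM. In the other 2, 3 of the 18 limnetic and 7 of the 16 benthic females of the higher population were under 0.1 CPM.

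Each female was then placed on a scale from the mean of the Paxton benthic (0) to that of the Paxton limnetic libraries (1), as the median over the 500 genes that best separated the other 33 females. Limnetic females lay between 0.768 and 1.11 (mean 0.971 ± 0.0811, SD, n = 18) and benthic females between -0.176 and 0.364 (mean 0.025 ± 0.136, SD, n = 16). Since the genes were chosen to separate the populations, the scale describes single females and is no test of the difference. The benthic females nearest to the limnetic side were those of trials 14 and 31, at 0.364 and 0.216, both with a heterospecific male, and the next ones stood at 0.0959. The limnetic female nearest to the benthic side was that of trial 17, with a conspecific male, at 0.768, and the next, of trial 79, stood at 0.854. At 0.78, the excluded library of trial 83 fell within the limnetic range despite its benthic label.

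Group means on this scale were 0.0142 ± 0.0878 (SD, n = 5), 0.0747 ± 0.208 (SD, n = 5) and -0.00738 ± 0.106 (SD, n = 6) for benthic females with conspecific males, with heterospecific males and in the social control. For limnetic females they were 0.941 ± 0.0999, 1.02 ± 0.0552 and 0.951 ± 0.0685 (SD, n = 6 each) in the same order. The treatments of a population overlapped on this scale, while no limnetic and benthic group did. The score genes were chosen to separate the populations and not the treatments, so this contrast is no measure of the effect of treatment.

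Benthic females had higher trial numbers than limnetic ones, from 14 to 91 (median 79.5) against 10 to 79 (median 38.5). Among benthic females the score was lower at higher trial numbers (Pearson's r = -0.663, permutation test, p = 0.00458, adjusted over the 2 populations p = 0.00916; Spearman's rho = -0.612, permutation test, p = 0.0131, adjusted p = 0.0262; n = 16). Without trials 14 and 31, the farthest from the median, r was -0.289, so the relation rests on these females. With fewer genes in the score the benthic r was -0.805, and with more genes it was -0.54. The score genes were chosen to separate populations that also differed in trial number, which can favour genes related to trial number. The permutation tests take no account of this choice, so they cannot decide whether benthic expression changed with trial number. Among limnetic females r was 0.19 (permutation test, p = 0.454, adjusted p = 0.454) and rho 0.22 (p = 0.379, adjusted p = 0.379; n = 18), and r was 0.458 without trials 79 and 70.

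**Figure D4:**
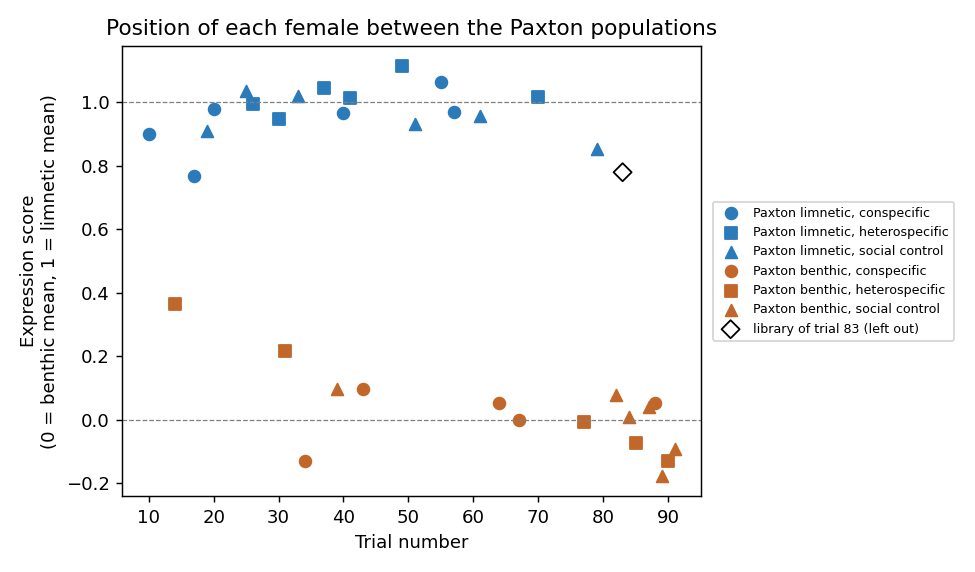
Expression score of each female (y axis, 0 for the Paxton benthic and 1 for the Paxton limnetic mean) against trial number (x axis), with colour for the population, symbol for the treatment and an open diamond for the library of trial 83. The 18 limnetic females lie at 0.768 or above and the 16 benthic females at 0.364 or below, with trials 14 and 31 the highest of the latter.

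Adding trial number to the model gave 5940 calls, 5007 of them among the 7108 and in the same direction. In the range of trial numbers that both populations shared (14 to 79), which held 8 benthic and 17 limnetic females, 3794 genes were called, 3500 of them among the 7108 and in the same direction. The sign was the same for 99.8% of the 7108 genes in either fit, and no gene was called in opposite directions. Both fits reused libraries from which the 7108 genes had been called, so this agreement in sign is no separate check. All 4 named genes remained called in both.

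The species were also compared within single treatments, between separate sets of females. Among females courted by conspecific males, 1581 genes were called (7.90%, 734 higher and 847 lower in limnetic females). Among those courted by heterospecific males 3374 were called (16.9%, 1520 higher and 1854 lower), and in the social control 2481 (12.4%, 1057 higher and 1424 lower). With the 34 Paxton libraries alone 54% of the calls in the social control were higher in limnetic females, against 42.6% here. The median fold of called genes was 1.49, 1.42 and 1.42 in this order. These medians depend on which genes passed. Over all tested genes the median absolute log2 fold change was 0.149, 0.187 and 0.161, smallest with conspecific males.

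Single libraries moved these numbers strongly. Leaving out single libraries gave 1062 to 1761 calls with conspecific males. It gave 1608 (without the benthic library of trial 90) to 3493 with heterospecific males and 1539 (without the benthic library of trial 89) to 3023 in the social control. In the shared range of trial numbers the heterospecific number was 776, and that of the social control 175, with 1 benthic library left there, whose spread was taken to be that of the other groups. The numbers of the 3 treatments were not tested against each other.

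**Figure D5:**
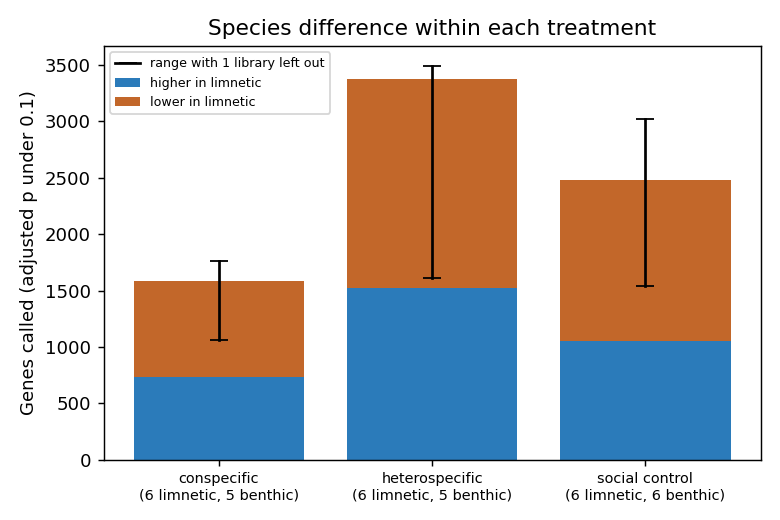
Genes called between Paxton limnetic and Paxton benthic females (y axis) within each treatment (x axis, with the number of libraries), stacked by direction, with a black line for the range of the total when 1 library of that treatment is left out. The totals are 1581, 3374 and 2481, and the ranges of the treatments overlap.

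Because no fish belonged to more than 1 treatment, the calls of one treatment could be looked up in the others. In each treatment, however, the benthic females had the higher trial numbers. The medians were 64 against 30 with conspecific males, 77 against 39 with heterospecific males and 85.5 against 42 in the social control. The comparisons within treatments also came from a single fit, which shared the filter and the estimate of each gene's spread. A gene with a small estimated spread is favoured in every treatment, which can raise the share called in more than 1. The part of trial number and of the shared estimate in the agreement between treatments was not tested. Of the 1581 genes called with conspecific males, 94.3% had the same sign with heterospecific males and 97% in the social control, against 65.8% and 73.7% over all tested genes. Of the same genes 52.9% were also called with heterospecific males and 62.4% in the social control, where 16.9% and 12.4% of all tested genes were. Of the 3374 genes called with heterospecific males, 24.8% were also called with conspecific males and 35.7% in the social control, against 7.90% and 12.4% of all genes. Across the tested genes, which are not independent, the log2 fold changes of pairs of treatments had a Pearson's r between 0.564 and 0.621, given as a description.

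In total 5081 genes were called in at least 1 treatment, 1680 in at least 2 and 675 in all 3. All 675 kept 1 sign, 245 higher and 430 lower in limnetic females, and their median fold was 1.61 in the comparison over treatments. Only 2 genes were called in more than 1 treatment with opposite signs.

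Whether the species difference depended on the treatment was tested as an interaction over the 3 treatments. The courtship treatments were defined relative to the female's own species, so limnetic and benthic females of one treatment had met males of different species. A response to the species of the male was not tested separately. No gene was called (0 of 20011, edgeR), the smallest adjusted p was 0.447, and 1022 genes (5.11%) had an unadjusted p under 0.05. The groups held 5 or 6 females each, which limits the power for small differences. The absence of calls therefore does not show that the species difference was equal in all treatments. DESeq2 called 3 genes. Among the 7108 genes that differed between the species 428 (6.02%) had an unadjusted interaction p under 0.05. Of the named genes, ENSGACG00000019508 had the smallest unadjusted interaction p, 0.0101, with an adjusted p of 0.872 from edgeR. Its benthic counts were 12, 22 and 1 in total in the conspecific, heterospecific and social control groups, and its limnetic counts 559, 409 and 505.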

How the data were processed

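Whole-brain poly(A) RNA of single female sticklebacks was sequenced as paired ends. The authors checked reads with FastQC 0.11.1, trimmed them with Trimmomatic 0.33, aligned them to the Ensembl BROAD S1 stickleback genome with BWA 0.7.7, sorted them with SAMtools 1.2 and deposited whole-number counts per gene made with bedtools 2.23.0, not normalized. BWA does not split reads over introns; reads across splice junctions may therefore be missing from the counts. Use of strand in counting was not given in the sources used here. Multiplicity of alignments was not given either, so genes with near-identical copies may share counts. No column of the table was left unassigned (0 columns).

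Of 22456 identifiers, 21798 had a count and 20011 passed edgeR's filterByExpr over the 9 groups of population and treatment. Quasi-likelihood models (edgeR 4.0.16, R 4.3.3, TMM scaling, robust) of population plus treatment, or of a mean for each group, were fitted to 51 libraries. P-values were adjusted over all tested genes by the Benjamini-Hochberg method and called under 0.1. Tests were two-sided. Permutation tests drew 100000 resamples for the main results and fewer for the alternative settings. The score used log2(CPM + 0.5). Alternatives were DESeq2 1.42.0, RLE scaling, no filter, the 34 Paxton libraries, all 53 libraries, trial number as covariate, an adjusted p under 0.05, and each of the 34 libraries left out. The shared range of trial numbers was chosen after seeing the data. Fits were tested on simulated data.

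The comparison, lists and rules were chosen with earlier results of these data known. Named genes were those called without overlap, with at least 1 CPM in the higher population and the largest folds, limited to 2 identifiers per direction. Lists of pathway and marker genes could not be matched to identifiers and were not applied. Counting error bears most on genes under 1 CPM.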

Additional observations from a re-analysis of the deposited data

Results flagged for a closer look

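In 54 groups of 5 or 6 values (the named genes and measures of the libraries), 7 held a library far from the others. The rule was set to flag about 1 in 20 by chance. That rate need not hold for counts near 0, where 1 count in a group otherwise at 0 is flagged, so 7 is not compared with chance. For ENSGACG00000019508, the benthic heterospecific library of trial 14 stood at 0.577 CPM, in a group otherwise at 0. The benthic social control library of trial 91 stood at 0.0256 CPM (1 count), also in a group otherwise at 0. The limnetic conspecific library of trial 40 stood at 3.82 CPM, with 2.43 CPM as the next value. For ENSGACG00000019364 the limnetic social control library of trial 19 stood at 0.146 CPM, with 0.113 CPM next, and for ENSGACG00000020158 that of trial 61 stood at 0.814 CPM, with 0.469 CPM next. None of the values in limnetic females reached the benthic range of these last genes.

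The share of counts in the 100 most abundant genes was 20.8% in the benthic conspecific library of trial 34, with 17.9% next in its group. It was also 20.8% in the limnetic conspecific library of trial 17, with 17.6% next, which is the limnetic library with the lowest expression score (0.768). The library of trial 83, labelled Paxton benthic and not used in the comparisons, had an expression score of 0.78, while the highest score of the benthic libraries used was 0.364.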

How the results depend on the processing

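The number of genes called between the populations was within 1.5 times of 7108 under every alternative listed in the methods except the shared range of trial numbers, from 5680 at an adjusted p under 0.05 to 7613 with the 34 Paxton libraries alone, and lay between 6567 and 7500 with 1 library left out. With those 34 libraries 53.5% of calls were higher in limnetic females, against 48.2% in the fit of 51, and in the social control 54% against 42.6%. In the shared range of trial numbers 3794 genes were called, 66 past 2-fold, 776 with heterospecific males, 175 in the social control and 6 in the interaction, and 124 genes did not overlap, all with fewer libraries. In this range neither difference in library measures had a p under 0.05 (-34.3 genes at 1 CPM and -0.92 percentage points). The second was larger than over all 34 libraries (-0.778 percentage points). With all 53 libraries the difference in the share of the 100 most abundant genes was close to this cutoff (permutation test, p = 0.0503). With the libraries thought to be swapped included under their labels, 984 genes were called with conspecific males and 20 did not overlap. At an adjusted p under 0.05 the conspecific, heterospecific and social control numbers were 997, 2225 and 1560. With trial number as covariate the social control number was 1583, and the cause was not tested. DESeq2 called 3 genes in the interaction. With 1 library left out, 102 to 123 genes passed 2-fold, 1062 to 1761 were called with conspecific males, 1608 to 3493 with heterospecific males, 1539 to 3023 in the social control and 0 to 1 in the interaction, 75 to 101 did not overlap, and 11 to 12 were near 0 in a population. In all 34 of these fits 5664 of the 7108 calls (79.7%) were kept, and none changed sign. The number near 0 rests on no model, so it had no fit with a covariate. No paired analysis was possible because the limnetic and benthic groups share no trial numbers. Depth limits the lowest level group most, where many genes had few counts per library.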
